A study of Mus musculus with 8 samples.

Results

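The neurotransmitter receptor genes of mouse neural stem/precursor cells were compared between control cultures and cultures transduced with Nfia, the gene of a nuclear factor I (NFI) protein that binds DNA and regulates transcription. They were taken by gene symbol, by a rule that uses no measured value: the ionotropic and metabotropic glutamate receptors, the GABA-A and GABA-B receptors, the glycine receptors, the nicotinic and muscarinic acetylcholine receptors, and the receptors of serotonin, dopamine and noradrenaline. The rule took 101 of the 23997 gene symbols in the files. Of these, 98 were receptor genes and 3 were not: Adrbk1 and Adrbk2, kinases that phosphorylate active G protein-coupled receptors, and Grin1os, a transcript antisense to Grin1. The D1 dopamine receptor gene, which the files list under its older symbol Drd1a, was not taken by the rule.

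The cells came from telencephalons of ICR mouse fetuses at E11.5 (the stage label gives E11) and were grown attached to coated dishes in N2-supplemented medium with 10 ng/mL basic fibroblast growth factor. Poly(A) RNA was sequenced 3 days after transduction, from 3 control libraries and 3 Nfia libraries. The labels do not say what the control cells received, what drove Nfia expression, or whether replicate libraries were grown as separate cultures. The p-values therefore measure only how these libraries vary, which may be technical. The series also has 2 chromatin immunoprecipitation samples, which were not analysed here.

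Fast transmission uses receptors that are themselves ion channels. Glutamate opens AMPA, kainate and NMDA receptors, which are tetramers, while GABA, glycine, acetylcholine at nicotinic receptors and serotonin at its Htr3 receptors open pentameric channels. The metabotropic receptors act through G proteins. Neural precursors carry several of these receptors before synapses form, and in such immature cells GABA often depolarises, because the chloride importer encoded by Slc12a2 outweighs the exporter encoded by Slc12a5.

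Expression was given as FPKM, the share of a library's mapped fragments that fall on a gene, scaled by transcript length. Library totals were 474010 to 511700 FPKM. Read counts are not in the files, and the depth relative to control 1, read from the commonest ratio between low values, was 0.760 to 1.11. Nfia itself was 19.8, 23.9 and 22.2 FPKM in the control libraries and 69.0, 85.6 and 103.5 FPKM in the Nfia libraries, and endogenous and introduced transcripts are not separated by these values. Genes of radial glia and neural stem cells were present in every library, with a summed level of 5530 to 6011 FPKM over 10 genes in control and 5476 to 6549 FPKM in Nfia cells. Most of that sum was Fabp7 (3426 FPKM in control, 2957 FPKM in Nfia cells) and Vim (1888 and 2443 FPKM). Neuron genes were present too, so the cultures were not of precursors alone: 15 neuron markers summed to 2037 to 2144 FPKM in control cells and 1319 to 1343 FPKM in Nfia cells. Lists for microglia and erythroid cells had 0 genes at a mean of 1 FPKM or more, out of 7 each. The 7 meningeal and mural markers were all tested and summed to 17.3 to 26.8 FPKM in control and 11.7 to 26 FPKM in Nfia cells, with Rgs5 lower and Col1a1 lowest in control 1 and Nfia 1 (0.889 and 1.09 FPKM, against 2.95 to 5.16 FPKM in the other libraries). Of 7 endothelial markers 1 was tested, Cldn5 (2.09 to 1.02 FPKM), and it was called lower. Of 6 choroid plexus markers 2 were tested. Ttr (2.50 to 0.861 FPKM) was called lower, and the more abundant Otx2 (35.2 and 32.9 FPKM) was not called (limma adjusted p = 0.275). The part of these markers in the receptor results was not tested. In bulk RNA, fewer cells of a type and less RNA per cell cannot be told apart.

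Most receptor genes were weakly expressed or silent. Of the 101 symbols, 5 were listed at 0 in all 6 libraries: the nicotinic subunit genes Chrna6, Chrna9 and Chrng, the GABA-A rho subunit gene Gabrr3 and the serotonin channel gene Htr3b. Another 22 had a mean above 0 but under 0.1 FPKM, 25 lay from 0.1 to under 0.5 FPKM, and 13 from 0.5 to under 1 FPKM. The remaining 36 had a 6-library mean of 1 FPKM or more and entered the test, and 11 of them reached 10 FPKM. Nearest to this minimum on the upper side were Gabbr2, Chrm4 and Adrb1 (means of 1.04, 1.17 and 1.35 FPKM), and on the lower side Chrna3, Chrnb1 and Grik4 (0.971, 0.949 and 0.946 FPKM).

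The transmitters differed in how much receptor mRNA was present. The 24 glutamate receptor genes summed to 186, 185 and 209 FPKM in the control libraries and 188, 190 and 209 FPKM in the Nfia libraries, and these ranges overlap. The 21 GABA receptor genes summed to 103, 96.5 and 110 FPKM in control cells and 71.7, 80.1 and 82.4 FPKM in Nfia cells, so every Nfia library lay below every control library. A large part of this sum was 1 gene, Gabbr1 (44.0 FPKM in control, 31.1 FPKM in Nfia cells). Of the 10 GABA receptor genes tested, 4 were called lower and 6 were not called. The 21 acetylcholine receptor genes summed to 34.98 to 36.99 FPKM in control cells and 30.7 to 35.7 FPKM in Nfia cells, and the 5 glycine receptor genes to 15.7 to 18.3 and 12.98 to 14.9 FPKM. Receptors of the monoamines were scarce: the 14 serotonin receptor genes summed to at most 5.55 FPKM in any library, the 9 adrenergic receptor genes to at most 6.18 FPKM, and the 4 dopamine receptor genes taken by the rule to at most 1.82 FPKM.

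**Figure D1:**
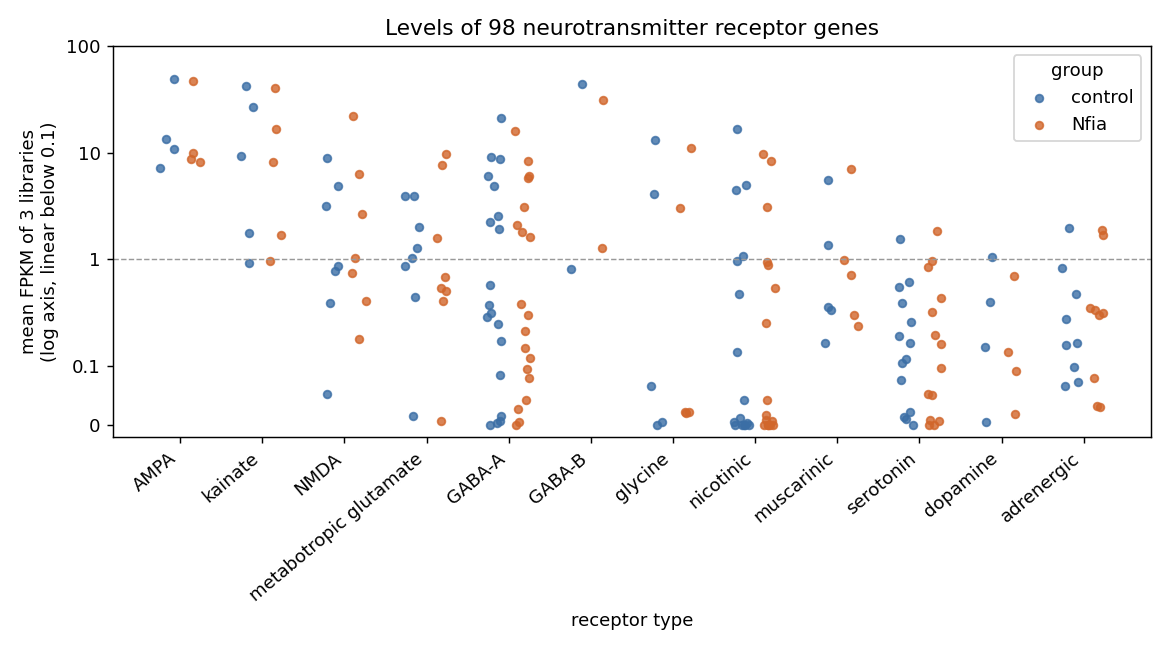
Mean FPKM of each of the 98 receptor genes (points) in control (blue) and Nfia (orange) cells, by receptor type on the horizontal axis. The vertical axis is logarithmic above 0.1 FPKM and linear below, and the dashed line marks the minimum of 1 FPKM for testing. AMPA receptor genes all lie above the line, while all 4 dopamine receptor genes have a mean over the 6 libraries under it.

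Of the 36 members tested, 6 rose and 7 fell in the Nfia libraries (adjusted p under 0.05, limma on log2(FPKM + 1), Benjamini-Hochberg adjustment over all 12537 genes tested). Over all those genes 16.1% were higher and 15.1% lower, against 16.7% and 19.4% of the members, so the members as a whole were not far from the share of all genes. The median log2 difference was -0.11 over the members and 0.01 over all genes tested. Among the members called, the direction differed by receptor type, with few genes tested per type. The 4 glutamate receptor genes that rose were of the NMDA and metabotropic types, 2 of 3 tested in each. Leaving out any 1 library removed the call of Grin3a, which is among them. Grin1 and Grm4, of the same types, were not called and had negative log2 differences (-0.19 and -0.23). The 4 GABA receptor genes that changed, of 10 tested, all fell. Among the 25 ion channel subunit genes tested, 3 rose and 6 fell, and among the 9 G protein-coupled receptor genes tested, 3 rose and 1 fell. The difference between these types was not tested.

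**Figure D2:**
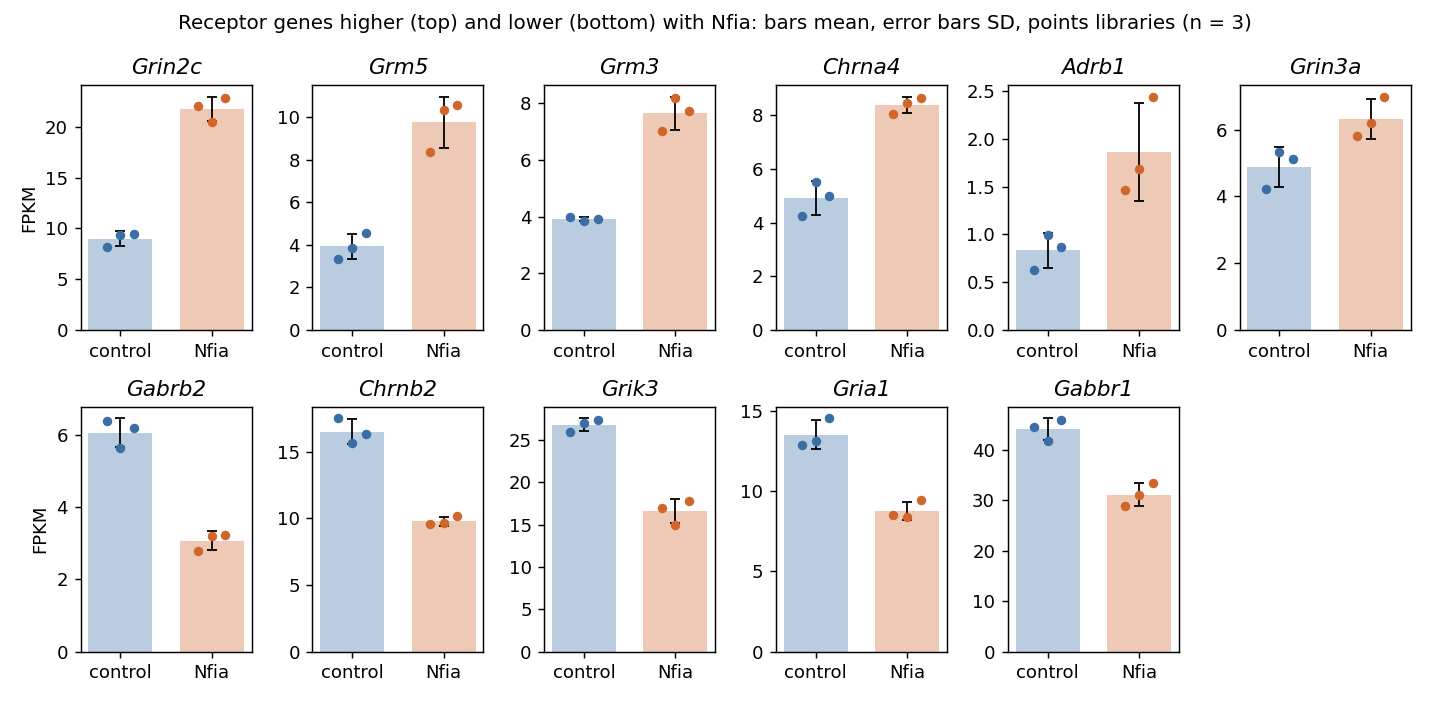
FPKM of 6 receptor genes higher (top row) and 5 lower (bottom row) with Nfia; bars are means, error bars SD over 3 libraries, points the libraries in replicate order. Each vertical axis starts at 0 and has its own scale. In all 11 panels the Nfia libraries lie wholly on one side of the control libraries. The genes were drawn because they were called in these libraries, so this separation is no further test of the calls.

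To show the DNA before some of the genes that moved, the sequence upstream of a RefSeq start is given 5′ to 3′ on the strand of the gene for 2 that rose (Grin2c and Grm3) and 2 that fell (Chrnb2 and Gabbr1), taken from RefSeq promoters on GRCm38.p6 (mm10). Capitals mark TTGGC or its reverse complement GCCAA, the arms of the palindrome that NFI proteins bind, TTGGC and GCCAA with 5 bases between them.
Grin2c, minus strand, chr11:115267298-115267493: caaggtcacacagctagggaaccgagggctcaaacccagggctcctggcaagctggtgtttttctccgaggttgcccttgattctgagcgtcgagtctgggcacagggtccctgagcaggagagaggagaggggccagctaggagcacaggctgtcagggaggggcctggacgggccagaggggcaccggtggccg
Grm3, minus strand, chr5:9725353-9725602: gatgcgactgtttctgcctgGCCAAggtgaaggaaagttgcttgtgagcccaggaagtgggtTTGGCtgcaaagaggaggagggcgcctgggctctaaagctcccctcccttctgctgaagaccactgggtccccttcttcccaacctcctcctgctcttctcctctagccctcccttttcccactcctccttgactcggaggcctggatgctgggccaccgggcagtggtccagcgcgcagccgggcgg
Chrnb2, minus strand, chr3:89764633-89764882: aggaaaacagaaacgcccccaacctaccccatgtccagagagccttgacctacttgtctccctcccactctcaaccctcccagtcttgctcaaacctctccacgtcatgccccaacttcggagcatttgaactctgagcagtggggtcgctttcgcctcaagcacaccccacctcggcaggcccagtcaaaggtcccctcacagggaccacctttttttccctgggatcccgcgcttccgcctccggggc
Gabbr1, plus strand, chr17:37045716-37045965: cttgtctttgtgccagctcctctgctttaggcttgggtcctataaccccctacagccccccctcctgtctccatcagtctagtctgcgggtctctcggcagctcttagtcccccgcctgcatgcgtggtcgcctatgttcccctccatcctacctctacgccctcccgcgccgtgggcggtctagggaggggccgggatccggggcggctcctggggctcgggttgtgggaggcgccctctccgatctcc

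Of these 4 stretches, the one before Grm3 holds 2 copies of TTGGC or GCCAA and the others hold 0. Of windows not shown, that of Adrb1, which rose, holds 2 copies, and 1 of the 3 windows of Gabrb2, which fell, holds 1. That full palindrome, which reads the same on both strands, was in 0 of 84 windows of 250 bases for the 73 symbols of the rule that the table holds, and in 12 of 32851 windows of the same length for all genes. The one-armed site TTGGCA, on either strand, was in 7 of the 84 windows (8.33%) and in 12.3% of all windows, and in 0 of the 4 windows of members that rose and 0 of the 6 windows of members that fell. The shorter TTGGC, which also counts every TTGGCA and palindrome, was in 48.8% of the 84 windows and 41.5% of all windows, and in 2 of the 4 windows of members that rose and 1 of the 6 of members that fell. The table holds windows for 4 of the 6 members that rose and 4 of the 7 that fell. These are matches of letters in a short window and say nothing of whether Nfia binds there or elsewhere.

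NMDA receptors join the obligatory subunit encoded by Grin1 with Grin2 subunits, which set the kinetics of the channel, or with Grin3 subunits. Grin2c, which encodes the GluN2C subunit known for its weak magnesium block and its expression in cerebellar granule cells and glia, was 8.15, 9.33 and 9.48 FPKM in the control libraries and 22.004, 20.5 and 22.9 FPKM in the Nfia libraries. Each Nfia library was well above each control library. It rose 2.43-fold (ratio of mean FPKM; log2(FPKM + 1) difference 1.19, SE 0.07, limma adjusted p = 0.000179). Grin2c and Grm5 had the highest log2 differences among the members tested; Grin2c led with a pseudocount of 1, and Grm5 with a pseudocount of 0.1 (1.295 against 1.271). The span of Grin2c in GRCm38 is chromosome 11 from 115249169 to 115267297.

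The other NMDA subunit genes were lower in level. Grin3a, which encodes a subunit that lowers calcium entry, was 4.22, 5.34 and 5.13 FPKM in control cells and 5.82, 6.19 and 6.99 FPKM in Nfia cells. It rose 1.29-fold, just past the threshold (log2 difference 0.32, limma adjusted p = 0.0497), and leaving out any of the 6 libraries removed the call (limma adjusted p = 0.0604 to 0.137), as did 6 of the 10 other settings tried. The span of Grin3a on chromosome 4, from 49661611 to 49846023, holds the gene Ppp3r2, which was at 0.304 FPKM in control cells and 0.469 FPKM in Nfia cells. Grin1 was 3.12, 3.13 and 3.17 FPKM in control cells and 2.15, 2.74 and 3.03 FPKM in Nfia cells, lower in each Nfia library but short of the threshold (log2 difference -0.19, limma adjusted p = 0.208). Its antisense transcript Grin1os overlaps it by 7403 bases and was at 0.149 and 0.166 FPKM. Grin2b, the main Grin2 gene of young forebrain neurons, was below the minimum for testing at 0.772 ± 0.113 FPKM in control cells and 1.02 ± 0.0384 FPKM in Nfia cells (SD, n = 3 per group, as throughout). Grin3b (0.863 ± 0.122 and 0.743 ± 0.168 FPKM), Grin2d (0.387 and 0.403 FPKM) and Grin2a (0.0529 and 0.178 FPKM) were also below it. Grin2c therefore made up most of the Grin2 mRNA in each group: 86.7% to 89.1% of the summed FPKM of Grin2a to Grin2d in the control libraries and 92.6% to 93.9% in the Nfia libraries.

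Metabotropic glutamate receptors were led by Grm3 and Grm5, both of which rose. Grm5, a group I receptor that couples to phospholipase C and is known in young astrocytes and neurons, was 3.35, 3.87 and 4.56 FPKM in control cells and 8.37, 10.3 and 10.6 FPKM in Nfia cells. That is 2.49-fold higher (log2 difference 1.13, SE 0.12, limma adjusted p = 0.00114). Grm3, a group II receptor that inhibits adenylyl cyclase and is known in glia as well as neurons, was 3.99, 3.86 and 3.92 FPKM in control cells and 7.03, 8.20 and 7.73 FPKM in Nfia cells. The control libraries hardly differed, and all 3 Nfia libraries were higher, 1.95-fold on average (log2 difference 0.81, SE 0.07, limma adjusted p = 0.000533). Grm5 lies on chromosome 7 from 87583981 to 88135063 and Grm3 on chromosome 5 from 9485236 to 9725352.

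The other metabotropic receptor genes had means under 2 FPKM, and none was called at the minimum of 1 FPKM. Grm2, the other group II receptor, was 1.28, 1.28 and 1.27 FPKM in control cells and 0.321, 0.521 and 0.655 FPKM in Nfia cells. Its mean was below the minimum for testing; with the minimum lowered to 0.5 FPKM it was lower with Nfia (log2 difference -0.61, limma adjusted p = 0.00813). The pair of group II genes thus lay on opposite sides, Grm3 above and Grm2 below control in every Nfia library. Of the group III genes, which encode mainly presynaptic receptors, Grm4 was 2.02 ± 0.111 FPKM in control cells and 1.57 ± 0.0838 FPKM in Nfia cells (limma adjusted p = 0.093, not called). Grm7 was 1.02 ± 0.141 and 0.539 ± 0.227 FPKM, below the minimum, and with the lowered minimum it did not pass (limma adjusted p = 0.0641). Grm8 was 0.867 and 0.688 FPKM, and Grm6 was under 0.1 FPKM. The summed level of the 8 genes was 13.1, 12.9 and 14.5 FPKM in control cells and 18.8, 22.5 and 22.02 FPKM in Nfia cells.

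All 4 AMPA receptor genes were tested. Gria2, whose subunit makes the channel impermeable to calcium once its mRNA is edited, was the most abundant of all receptor genes, at 47.7, 43.0 and 56.0 FPKM in control cells and 44.8, 44.7 and 49.99 FPKM in Nfia cells. These ranges overlap and the difference did not pass (limma adjusted p = 0.653). Gria1, the subunit gene prominent in activity-driven receptor insertion, was 12.9, 13.1 and 14.5 FPKM in control cells and 8.52, 8.39 and 9.43 FPKM in Nfia cells. Every Nfia library lay below every control library, and Gria1 fell (1.54-fold lower, log2 difference -0.57, SE 0.07, limma adjusted p = 0.00168). Gria3 (7.12 ± 0.473 FPKM in control, 8.22 ± 1.13 FPKM in Nfia cells) and Gria4 (10.8 ± 0.565 and 9.89 ± 0.384 FPKM) were not called. Gria1 made up 16.2% to 17.7% of the summed FPKM of the 4 genes in the control libraries and 11.7% to 12.2% in the Nfia libraries. The level of an mRNA does not show whether it was edited. Gria1 spans chromosome 11 from 57011571 to 57330244.

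Kainate receptors are built from Grik1 to Grik3 subunits, which form channels alone, and the partner subunits Grik4 and Grik5. Grik5 was the most abundant of them, at 41.8 ± 2.33 FPKM in control cells and 40.7 ± 2.93 FPKM in Nfia cells, and did not pass the test (limma adjusted p = 0.707). Grik3, which encodes a subunit of low glutamate affinity, was 25.9, 27.0 and 27.4 FPKM in control cells and 16.9, 14.99 and 17.7 FPKM in Nfia cells. The groups were far apart compared with the spread within them, and Grik3 fell 1.62-fold (log2 difference -0.66, SE 0.07, limma adjusted p = 0.000895). Grik2 was 9.23 ± 0.781 and 8.24 ± 0.428 FPKM, Grik1 1.76 ± 0.282 and 1.70 ± 0.184 FPKM, and neither passed. Grik4 was below the minimum at 0.930 and 0.962 FPKM. Of the summed FPKM of Grik1 to Grik3, Grik3 held 69.4% to 72.0% in control and 61.1% to 63.4% with Nfia. Its span is chromosome 4 from 125490259 to 125714173.

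GABA-A receptors usually join alpha, beta and gamma subunits. Of the 8 GABA-A genes tested 3 fell and 0 rose. Gabrb2, a beta subunit gene, was 6.39, 5.63 and 6.20 FPKM in control cells and 2.78, 3.21 and 3.24 FPKM in Nfia cells. It was 1.97-fold lower, the largest decrease on the log2 scale among the members tested (log2 difference -0.80, SE 0.08, limma adjusted p = 0.000873). Neuron markers were lower in the same Nfia libraries, with the values given further on.

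The 4 alpha subunit genes tested and Gabrg1 did not pass the test. Gabra2, the most abundant alpha gene, was 8.79 ± 0.734 FPKM in control cells and 8.28 ± 1.54 FPKM in Nfia cells. Gabra3 was 2.55 ± 0.591 and 1.62 ± 0.376 FPKM (limma adjusted p = 0.0875), Gabra4 1.90 ± 0.305 and 2.07 ± 0.182 FPKM, and Gabra5 2.23 ± 0.528 and 1.78 ± 0.659 FPKM. Gabrg1, a gamma gene known from glia and some forebrain regions, was 4.82 ± 0.774 FPKM in control cells and 5.74 ± 0.862 FPKM in Nfia cells (limma adjusted p = 0.254). Gabrb1 was under the minimum at 0.571 ± 0.172 and 0.383 ± 0.103 FPKM. The delta, epsilon, theta, pi and rho subunit genes and Gabra6 and Gabrg3 were below it as well.

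Gabrg1, Gabra2, Gabra4 and Gabrb1 lie side by side on chromosome 5 from 70751047 to 72149572, and none of the 3 that were tested was called. The spans of Gabra4 and Gabrb1 share 388 bases, and no source states whether strand was used in counting.

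GABA-B receptors, which act through G proteins, need the products of both Gabbr1 and Gabbr2 to reach the surface and signal. Gabbr1 was 44.4, 41.7 and 46.0 FPKM in control cells and 28.9, 31.1 and 33.4 FPKM in Nfia cells, lower in every Nfia library. It fell 1.42-fold (log2 difference -0.49, SE 0.06, limma adjusted p = 0.00251). Gabbr2 was far scarcer, 0.750, 0.688 and 0.982 FPKM in control cells and 1.05, 1.37 and 1.397 FPKM in Nfia cells. All 3 Nfia libraries were above the control libraries, but the difference did not pass (log2 difference 0.33, limma adjusted p = 0.0979). As a share of the FPKM of both genes, Gabbr2 went from 1.63% to 2.09% in the control libraries to 3.50% to 4.22% in the Nfia libraries. Gabbr1 spans chromosome 17 from 37045966 to 37074305.

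Glycine receptors were represented by Glrb, the beta subunit that binds the anchor protein gephyrin, and by Glra2, the embryonic alpha subunit. Glrb was 14.5, 11.8 and 12.8 FPKM in control cells and 10.6, 11.2 and 11.04 FPKM in Nfia cells. The Nfia libraries were all lower, but the difference missed the threshold (log2 difference -0.23, limma adjusted p = 0.0562). Glra2 was 4.06 ± 1.17 and 3.02 ± 0.633 FPKM (limma adjusted p = 0.242). Glra1, Glra3 and Glra4 had means under 0.1 FPKM.

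Among nicotinic receptor genes, the partners of the main brain receptor moved in opposite directions. Chrna4, its alpha subunit gene, was 4.26, 5.51 and 5.00 FPKM in control cells and 8.04, 8.48 and 8.65 FPKM in Nfia cells, and rose 1.70-fold (log2 difference 0.67, SE 0.09, limma adjusted p = 0.00228). Chrnb2, its beta subunit gene, was 17.5, 15.7 and 16.4 FPKM in control cells and 9.55, 9.64 and 10.1 FPKM in Nfia cells, and fell 1.69-fold (log2 difference -0.70, SE 0.05, limma adjusted p = 0.000449). Neither gene showed any overlap between the groups. Chrna4 held 19.6% to 25.97% of the FPKM of the pair in the control libraries and 45.7% to 46.8% in the Nfia libraries, so the 2 mRNAs came close to equal levels. Chrna4 lies on chromosome 2 from 181022311 to 181043579 and Chrnb2 on chromosome 3 from 89753448 to 89764632, where its end shares 8 bases with Adar.

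**Figure D3:**
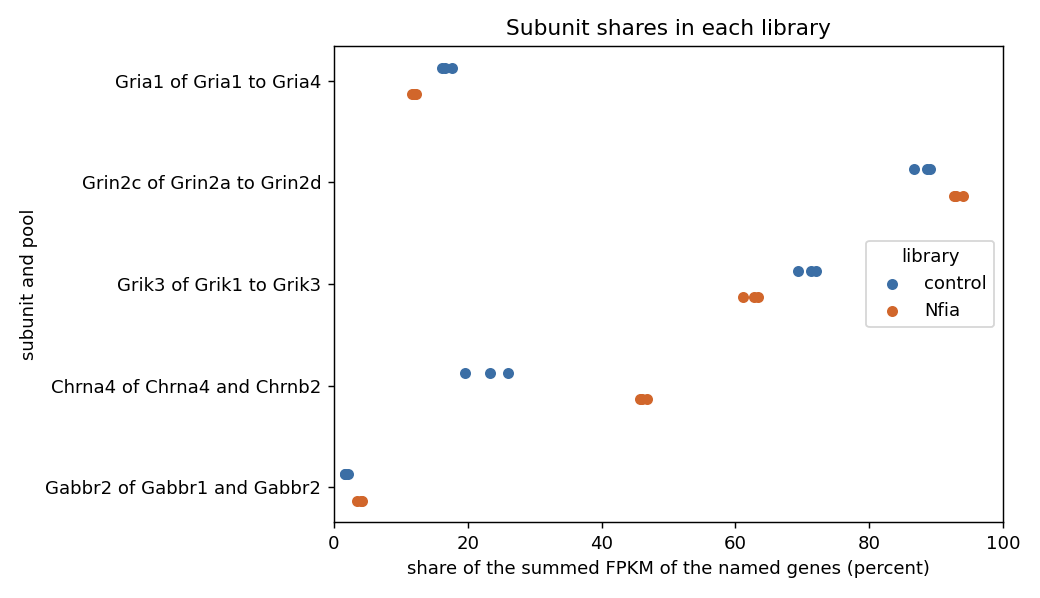
Share of the summed FPKM of a pool of receptor subunit genes held by the named gene, in percent, in each control (blue) and Nfia (orange) library. The groups do not overlap in the 5 pools drawn, which were picked after their values were seen; the share of Gria2 among the AMPA genes, not drawn, overlaps (58.1% to 62.6% in control, 62.4% to 64.2% with Nfia). In the plot, the share of Chrna4 is 19.6% to 25.97% in control and 45.7% to 46.8% with Nfia.

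Chrna7, whose subunit forms a calcium-permeable receptor on its own, was 3.52, 4.80 and 5.09 FPKM in control cells and 2.57, 3.68 and 3.09 FPKM in Nfia cells. The groups overlap and the difference did not pass (log2 difference -0.41, limma adjusted p = 0.0763). Chrna3 (1.06 ± 0.166 FPKM in control, 0.881 ± 0.162 FPKM in Nfia cells) and its chromosome 9 neighbour Chrna5 (0.474 and 0.536 FPKM) were below the minimum, as was Chrnb1, of the muscle receptor, at 0.962 and 0.937 FPKM. Of the muscarinic receptors, Chrm3, which couples to phospholipase C, was the most abundant, at 5.09, 5.70 and 5.66 FPKM in control cells and 6.17, 6.67 and 8.02 FPKM in Nfia cells. All Nfia libraries lay above the control libraries, with a difference that missed the threshold (log2 difference 0.29, limma adjusted p = 0.0612). Chrm4 was 1.35 ± 0.173 and 0.989 ± 0.0534 FPKM (limma adjusted p = 0.15). Its span shares 31 bases with Mdk, which was at 175 and 107 FPKM and fell. Chrm5 was below the minimum, with 0.0958, 0.238 and 0.158 FPKM in control cells and 0.152, 0.710 and 1.26 FPKM in Nfia cells.

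Of the monoamine receptors, Adrb1 passed the test. This gene of the beta-1 adrenergic receptor, which raises cyclic AMP, was 0.630, 0.999 and 0.868 FPKM in control cells and 1.46, 1.69 and 2.44 FPKM in Nfia cells. It rose 2.24-fold with no overlap between the groups (log2 difference 0.63, SE 0.16, limma adjusted p = 0.0254). With a pseudocount of 0.1 the log2 difference was 1.06. Without control 1, control 3 or Nfia 2 the call ended (limma adjusted p = 0.0669, 0.061 and 0.0568). Adrb1 lies on chromosome 19 from 56722117 to 56725150. Adra2a, which lowers cyclic AMP, was 1.97 ± 0.149 and 1.67 ± 0.451 FPKM (limma adjusted p = 0.415). The receptor kinase genes Adrbk1 (34.3 ± 0.195 and 33.7 ± 1.78 FPKM) and Adrbk2 (2.42 ± 0.287 and 2.17 ± 0.145 FPKM) did not pass.

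Htr3a, the serotonin-gated channel gene, was the only serotonin receptor gene tested. It was 1.49, 1.45 and 1.72 FPKM in control cells and 2.26, 2.14 and 1.10 FPKM in Nfia cells, so 2 Nfia libraries were above and 1 below all controls, and the difference did not pass (limma adjusted p = 0.639). Without Nfia 3 it passed as higher (limma adjusted p = 0.0472). Htr2a, which couples to phospholipase C, was 0.494, 0.324 and 0.351 FPKM in control cells and 0.773, 0.909 and 1.21 FPKM in Nfia cells. It was below the minimum, and with the minimum lowered to 0.5 FPKM it was higher (log2 difference 0.50, limma adjusted p = 0.0228). Htr6 (0.545 and 0.836 FPKM) and Htr7 (0.609 and 0.435 FPKM) did not pass under that lowered minimum. Drd2, the dopamine receptor gene with the highest mean, was 1.29, 0.879 and 0.963 FPKM in control cells and 0.869, 0.573 and 0.650 FPKM in Nfia cells, and did not pass there either (limma adjusted p = 0.144). Drd1a was 0.519 and 0.356 FPKM.

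**Figure D4:**
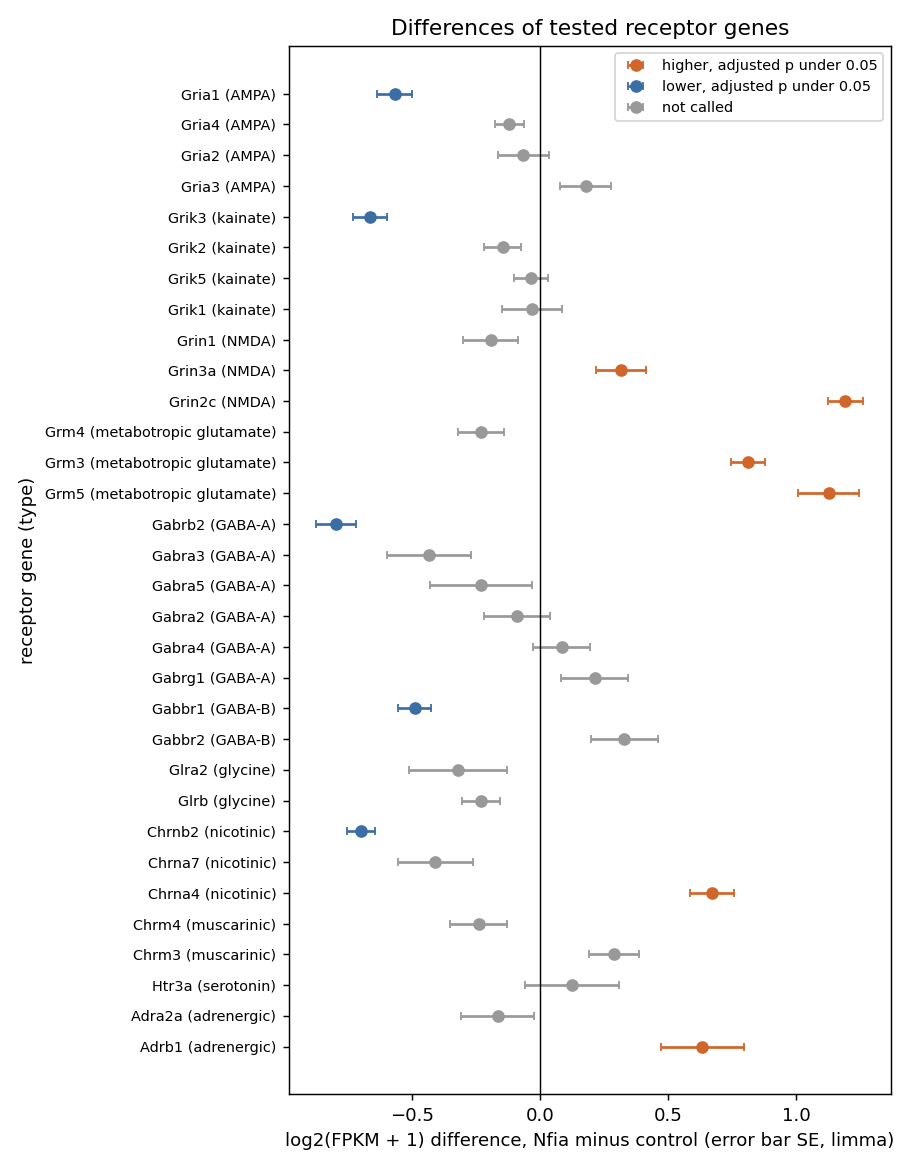
Log2(FPKM + 1) difference, Nfia minus control, of the tested receptor genes described here (horizontal axis; error bars SE from limma), ordered by receptor type. Orange points were called higher, blue points lower and grey points not called at an adjusted p of 0.05; the values run from -0.80 for Gabrb2 to 1.19 for Grin2c.

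Markers of cell types also differed between the groups. Of the 15 neuron markers tested, 13 were lower and 1 higher with Nfia, where 15.1% of all genes were lower and 16.1% higher. Their median log2 difference was -0.55. Over the 34 receptor genes tested the median was -0.13. The calls of the neuron markers Mapt, Snap25 and Gap43 (lower) and Nefl (higher) were each lost without at least 1 library. Of 10 astrocyte markers, 8 were tested, 4 were higher and 2 lower, and Aqp4 and S100b were below the minimum. The list's sum went from 301 to 336 FPKM in control to 454 to 478 FPKM in Nfia cells. Higher were Sparcl1 (44.2 to 105 FPKM), Aldoc (116 to 179 FPKM), Slc1a3 (56.5 to 85.3 FPKM) and Fgfr3 (14.2 to 17.8 FPKM). Gfap (2.36 to 1.37 FPKM) and Aldh1l1 (17.1 to 11.8 FPKM) were lower, and Slc1a2 and Gja1 were not called. The calls of Fgfr3 and Gfap were each lost without at least 1 library. Of 7 oligodendrocyte precursor markers 2 were higher and 1 lower, and their sum went from 360 to 407 FPKM to 1055 to 1115 FPKM. Most of that sum was Olig1 (227 to 690 FPKM) and Olig2 (136 to 373 FPKM), while Pdgfra fell from 6.998 to 4.14 FPKM and the other 4 were not called. The 10 radial glia markers had 4 higher (Nes, Vim, Hes1 and Slc1a3) and 3 lower (Pax6, Hes5 and Msi1). The calls of Vim and Hes5 were each lost without at least 1 library. Slc1a3 is in both this list and the astrocyte list. The part of these shifts in the receptor results was not tested.

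Genes that supply, clear, assemble and anchor around these receptors were taken from 5 lists with 95 genes in all. Of the 69 tested, 11 rose and 18 fell, where 16.1% of all genes rose and 15.1% fell. Without Nfia 2 these counts were 6 and 8, and without control 3 they were 9 and 8; control 2 (7 and 10) and Nfia 1 (10 and 9) also moved them. Of 16 genes of transmitter synthesis and vesicle loading, 7 were tested, 0 rose and 4 fell (median log2 difference -0.42). Gad2, an enzyme of GABA synthesis, was 23.9, 20.1 and 21.4 FPKM in control cells and 13.3, 12.7 and 11.9 FPKM in Nfia cells (log2 difference -0.74, limma adjusted p = 0.000924). Slc32a1, the vesicular transporter of GABA and glycine, fell as well, from 14.4 ± 0.869 to 9.48 ± 0.535 FPKM (limma adjusted p = 0.00138). Gad1, the other gene of GABA synthesis in the list, was more abundant than Gad2 and did not pass. It was 33.7 ± 1.17 FPKM in control cells and 32.5 ± 3.40 FPKM in Nfia cells (limma adjusted p = 0.626). The vesicular glutamate transporter gene Slc17a6 (2.10 to 1.24 FPKM) fell 1.69-fold. The vesicular monoamine transporter gene Slc18a2 (3.47 to 2.35 FPKM) fell 1.48-fold. Gad2 fell 1.72-fold and Slc32a1 1.52-fold. The call of Slc17a6 ended without control 1, control 3 or Nfia 2, and that of Slc18a2 without any library other than Nfia 3 and with no minimum (limma adjusted p = 0.0729). Chat and Dbh, of acetylcholine and noradrenaline synthesis, were listed at 0 in every library.

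Of 23 genes of transmitter uptake and breakdown, 14 were tested, 4 rose and 2 fell (median log2 difference 0.03). The glial glutamate transporter gene Slc1a3 rose from 56.5 ± 2.75 to 85.3 ± 1.75 FPKM (limma adjusted p = 0.000488), and Slc1a4, a transporter of alanine, serine and cysteine from the same family, from 24.9 ± 1.15 to 54.0 ± 3.74 FPKM (limma adjusted p = 0.000179). Bche, an enzyme that breaks down choline esters, rose from 3.49 ± 0.0492 to 6.17 ± 0.277 FPKM. The 2 genes of this list that fell both act in GABA clearance. Abat, which breaks GABA down, was 40.04, 36.3 and 36.2 FPKM in control cells and 21.3, 17.5 and 18.1 FPKM in Nfia cells (log2 difference -0.95, limma adjusted p = 0.000562). Slc6a11, a GABA transporter gene named after its values were seen, fell from 14.8 ± 0.881 to 7.76 ± 0.831 FPKM (limma adjusted p = 0.000749).

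Of 25 auxiliary subunit and assembly genes, 20 were tested, 3 rose and 5 fell (median log2 difference -0.11). Lynx1, which encodes a membrane-anchored protein that dampens nicotinic receptors, had the largest difference of all 5 lists: 2.53, 2.77 and 3.37 FPKM in control cells and 13.5, 17.5 and 16.7 FPKM in Nfia cells (log2 difference 2.12, limma adjusted p = 0.000179). Lypd1, a relative of it, fell from 6.78 ± 0.653 to 3.96 ± 0.227 FPKM, and Tmem35, an assembly factor of nicotinic receptors, from 46.8 ± 2.50 to 31.5 ± 2.35 FPKM. Cnih2, an AMPA receptor auxiliary subunit, was 96.6, 87.8 and 90.4 FPKM in control cells and 52.6, 51.7 and 53.0 FPKM in Nfia cells (limma adjusted p = 0.000183). These 4 calls held without each library in turn. The other calls in this list, Gsg1l and Kctd12 (higher) and Cacng7 and Cacng8 (lower), were each lost without at least 1 library.

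Of 23 scaffold and adhesion genes, 22 were tested, 3 rose and 6 fell (median log2 difference -0.12). Dlgap3, a postsynaptic scaffold protein gene, was 18.1, 18.2 and 18.1 FPKM in control cells and 42.4, 39.5 and 43.9 FPKM in Nfia cells (log2 difference 1.17, limma adjusted p = 9.12e-05). The other 8 calls in this list were each lost without at least 1 library. Homer2, which links group I metabotropic receptors to calcium stores, went from 4.32 to 5.41 FPKM and lost its call without Nfia 2. Nlgn3 (15.9 to 12.6 FPKM), a synaptic adhesion gene, and Pick1 (18.7 to 15.5 FPKM), which binds AMPA receptors, were lower. Of the chloride cotransporters and relatives of the glutamate receptors, 6 of 8 were tested, 1 rose and 1 fell. Slc12a2, the chloride importer gene, was 16.5, 16.3 and 16.9 FPKM in control cells and 19.4, 20.4 and 19.96 FPKM in Nfia cells (log2 difference 0.25, limma adjusted p = 0.00552). Slc12a7, a potassium and chloride exporter gene, went from 19.9 to 16.4 FPKM, and its call ended without control 2, control 3, Nfia 1 or Nfia 2. Grid1, a delta-type relative of the ionotropic glutamate receptors, had a log2 difference of 0.37 that missed the threshold (limma adjusted p = 0.0554). Slc12a5, the exporter gene of mature neurons, was 3.04 and 2.27 FPKM and did not pass (limma adjusted p = 0.0903).

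**Figure D5:**
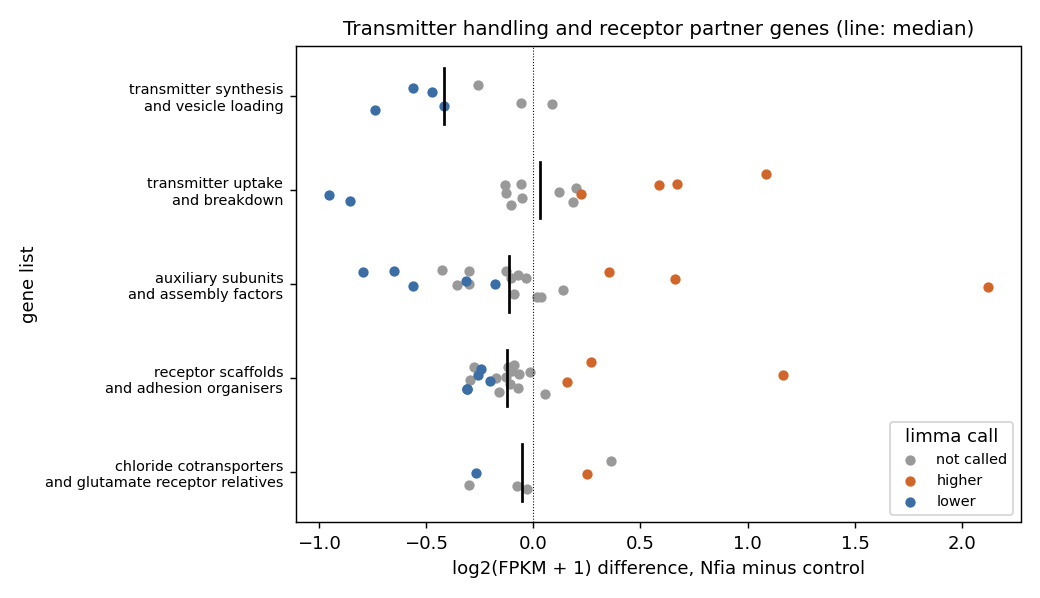
Log2(FPKM + 1) difference, Nfia minus control, of the tested genes in the 5 lists of genes around the receptors (points; orange called higher, blue lower, grey not called by limma), with the median of each list as a black line. Vertical scatter within a list carries no value. The point farthest to the right is Lynx1 at 2.12.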

How the data were processed

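RNA-seq was analysed for 3 control and 3 Nfia libraries. The authors deposited 1 FPKM value per gene and library; per the submitters' processing notes Bowtie, TopHat, Cufflinks, Cuffdiff and the mm10 build were used in the series, with no roles given, and the use of strand is not given in the sources used here. FPKM values are not counts. They keep no read depth per gene, so the precision of low values is unknown. Poly(A) selection and a directional library kit are given per the labels' protocols.

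Values were tested as log2(FPKM + 1), which understates the change of low genes, with limma 3.58.1 (moderated variances with a mean trend, R 4.3.3). Genes whose average across libraries reached 1 FPKM entered, without other covariates, and p-values were adjusted by Benjamini-Hochberg over all 12537 genes; 0.05 was the threshold. The fit was tested on simulated normal values with the fit's own spread, where a smaller share of genes changed than was called here. Those settings differ from these data, so that run does not show how far the calls hold here. Fold changes are ratios of mean FPKM. The smallest exact permutation p for 3 against 3 is 0.1, so no permutation test was used. The members and all gene lists were chosen with earlier results of these data known. Members named are those called, the highest of each type, all others at 1 FPKM or more by value or range, those from 0.5 to 1 FPKM, those nearest the minimum, and up to 4 genes per list with the smallest adjusted p; other low members were named after their values were seen. Positions and promoters come from RefSeq tables of GRCm38.p6, which hold positions for all 101 symbols; the search for TTGGC alone was added after seeing the data. There were 16 alternatives: the pseudocount, the minimum, scaling, the variance model, a replicate block and leaving out each library. Values of some members are not reported here; they remain in the counts and sums.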

Additional observations from a re-analysis of the deposited data

How the results depend on the processing

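Of the 13 receptor calls, 11 were kept without each library in turn and under every other alternative whose fit held them; the exceptions were Adrb1 and Grin3a. With a minimum of 5 FPKM only 11 of the 13 were in the fit (Gabrb2 and Adrb1 were not), and 10 were called. The number of members called was 4 to 7 higher and 7 to 10 lower over the 10 other settings, and 4 to 8 higher and 7 to 9 lower without single libraries. Of the 23 tested members not called, 9 were called under at least 1 alternative (Chrm3, Glrb, Gabra3, Chrna7, Gabbr2, Grm4, Chrm4, Gria3 and Htr3a). With no minimum, Adra1d (0.0973 FPKM in control, 0.299 FPKM in Nfia cells) was also higher (limma adjusted p = 0.029).

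For the 5 lists of genes around the receptors, 11 rose and 18 fell. Without single libraries these counts were 6 to 10 and 8 to 20. They were 7 and 10 without control 2, 9 and 8 without control 3, 10 and 9 without Nfia 1, and 6 and 8 without Nfia 2. Each such fit has fewer samples. Between 12 and 22 of the 101 symbols were listed at 0 in a library, and without read counts the precision of members under 1 FPKM is unknown.

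Replicate numbers are shared between groups. Over all genes tested, same-numbered libraries did not deviate together (correlations of 0.0264, -0.00578 and 0.0461), and control 1 correlated best with Nfia 2. Correlations over all genes do not show how single genes or sums pair. The glutamate receptor sum was highest in control 3 and Nfia 3 (209 FPKM in each), and Col1a1 was lowest in control 1 and Nfia 1. The acetylcholine receptor sum was highest in control 2 and Nfia 3. A fit with the replicate block called 7 members higher and 9 lower, and 10 and 18 genes of the lists. The members gained were Chrm3 (higher), Gabra3 and Chrna7 (both lower), with limma adjusted p = 0.0389, 0.0491 and 0.0251. Of the list genes named, Slc18a2 lost its call (limma adjusted p = 0.0664).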
